A study of Mus musculus with 27 samples.

Results

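The HOX genes were taken as all genes named Hox, a cluster letter from a to d and a number, and each was read from its brightest probe set among those that name a single gene. This gave 33 genes of the 18193 measured, out of 39 Hox genes in the RefSeq gene table, and they were covered by 48 probe sets, with 11 of the genes covered by several. The HoxA and HoxB clusters held 9 of these genes each, HoxC 7 and HoxD 8. The other 6 genes in that table were not analysed here. Messenger RNA was measured on 27 arrays of mouse embryonic fibroblasts from 3 lines: the wild type, a knockout of PKBalpha (the protein kinase encoded by Akt1) and a line that the labels describe as the knockout with PKBalpha put back, called line R here. Each line was sampled untreated and again 4 h and 24 h after gamma irradiation with 10 Gy, in 3 biological replicates according to the series' design text. All cells were female and at passage 45, and all were grown in medium with 10% serum. Each genotype was 1 line, so genotype cannot be told apart from any other difference between the lines, and p-values measure the spread between arrays of a line. Groups follow the sample titles, since the descriptions of 6 wild-type samples titled 4 h or 24 h call them untreated, which bears on every wild-type value after irradiation.

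HOX genes encode homeodomain transcription factors that tell cells where they lie along the head-to-tail axis. In mammals they sit in 4 clusters, and their order along a cluster follows the order of their expression in the embryo, with low paralog numbers starting nearer the head and high numbers nearer the tail. Cultured fibroblasts keep much of the HOX pattern of the body site they came from, and Polycomb and Trithorax proteins are known to hold the silent and active states in place.

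Akt1 read 3549 in wild-type cells, 21.5 in the knockout and 21 in line R (geometric mean intensities of 9 arrays), so the probe set did not show the transcript put back in line R, and line R is described below by its label only. All 10 fibroblast markers read above background in all 3 lines, but not at equal levels. By the test used below, 8 differed from the wild type in the knockout (80%, against 33% of all genes). In line R 6 did (60%, against 34.1%). Background was set at an intensity of 69.9, the maximum over 15 probe sets of genes on the Y chromosome (405 values), a chromosome absent from female cells. By the log2 ratio of the Gapdh control probe sets at both ends of the transcript, 5 arrays stood apart (-0.187 to 0.16, against -0.466 to -0.298 on the other 22). They were 2 arrays of the wild type, 1 of the knockout and 2 of line R, and their part in the results was not tested unless a value without them is given. Intensities of different probe sets are not comparable, so levels are compared only between lines or times for the same gene. The number of arrays limits the precision of each value, and in bulk RNA fewer cells that express a gene and less RNA per cell cannot be told apart.

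The promoters of 3 genes are shown because the paralogs Hoxb4 and Hoxc4 were found in opposite lines, and Hoxa5 in all of them. Each sequence is the 250 bases before the transcript start in RefSeq (GRCm38.p6), 5′ to 3′ on the strand of the gene, with the dinucleotide CG in capitals. Hoxb4 lies at chr11:96318017-96318266 on the plus strand, Hoxc4 at chr15:103034145-103034394 on the plus strand and Hoxa5 at chr6:52204588-52204837 on the minus strand. The RefSeq gene model of Hoxc4 begins upstream of this window, at position 103018097, so the window precedes a start inside the model. The stretch before the outer start of Hoxc4 was not examined.
Hoxb4: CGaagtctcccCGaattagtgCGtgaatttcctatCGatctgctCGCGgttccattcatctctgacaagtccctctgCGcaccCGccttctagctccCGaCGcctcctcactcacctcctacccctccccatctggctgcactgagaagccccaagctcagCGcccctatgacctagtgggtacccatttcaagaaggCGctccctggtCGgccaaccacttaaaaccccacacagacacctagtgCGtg
Hoxc4: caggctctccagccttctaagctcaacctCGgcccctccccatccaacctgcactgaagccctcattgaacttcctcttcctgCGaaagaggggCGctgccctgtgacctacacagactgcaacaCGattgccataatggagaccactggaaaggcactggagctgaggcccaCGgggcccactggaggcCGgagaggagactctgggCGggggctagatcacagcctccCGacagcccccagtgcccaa
Hoxa5: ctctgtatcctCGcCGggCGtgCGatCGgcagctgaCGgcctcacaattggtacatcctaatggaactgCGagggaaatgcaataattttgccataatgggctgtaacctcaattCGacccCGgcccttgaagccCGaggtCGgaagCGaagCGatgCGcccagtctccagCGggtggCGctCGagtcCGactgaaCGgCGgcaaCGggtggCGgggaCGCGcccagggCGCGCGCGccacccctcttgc
These windows held 14, 8 and 28 CG dinucleotides, against a median of 6 over 32851 mouse promoter windows of the same length. RefSeq windows matched 19 of the 33 genes, with 21 windows and a median of 13 CG. The sequence AGGTCA, the half-site of retinoic acid receptors, was searched on both strands. It occurred once in the Hoxb4 window and once in the Hoxc4 window and not in that of Hoxa5, and 14% of all windows held it. CCAAT, on either strand, was absent from both paralog 4 windows and present once in that of Hoxa5, against 33.8% of all windows. These matches describe letters and not binding.

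The 3 lines fell into a pair of HOX patterns. Wild-type cells carried HoxB genes of paralogs 2 to 6 and read HoxC paralogs 4 to 10 below background. Knockout cells and line R carried HoxC paralogs 4 to 10 and read every measured HoxB gene below background. As a mean of 9 arrays, 12 of the 33 genes were above background in wild-type cells (Hoxa2, Hoxa3, Hoxa4, Hoxa5, Hoxa7, Hoxb2, Hoxb3, Hoxb4, Hoxb5, Hoxb6, Hoxc13 and Hoxd8). In the knockout 10 were (Hoxa3, Hoxa4, Hoxa5, Hoxa7, Hoxc4, Hoxc5, Hoxc6, Hoxc8, Hoxc9 and Hoxc10), and line R had these 10 and Hoxa10.

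**Figure D1:**
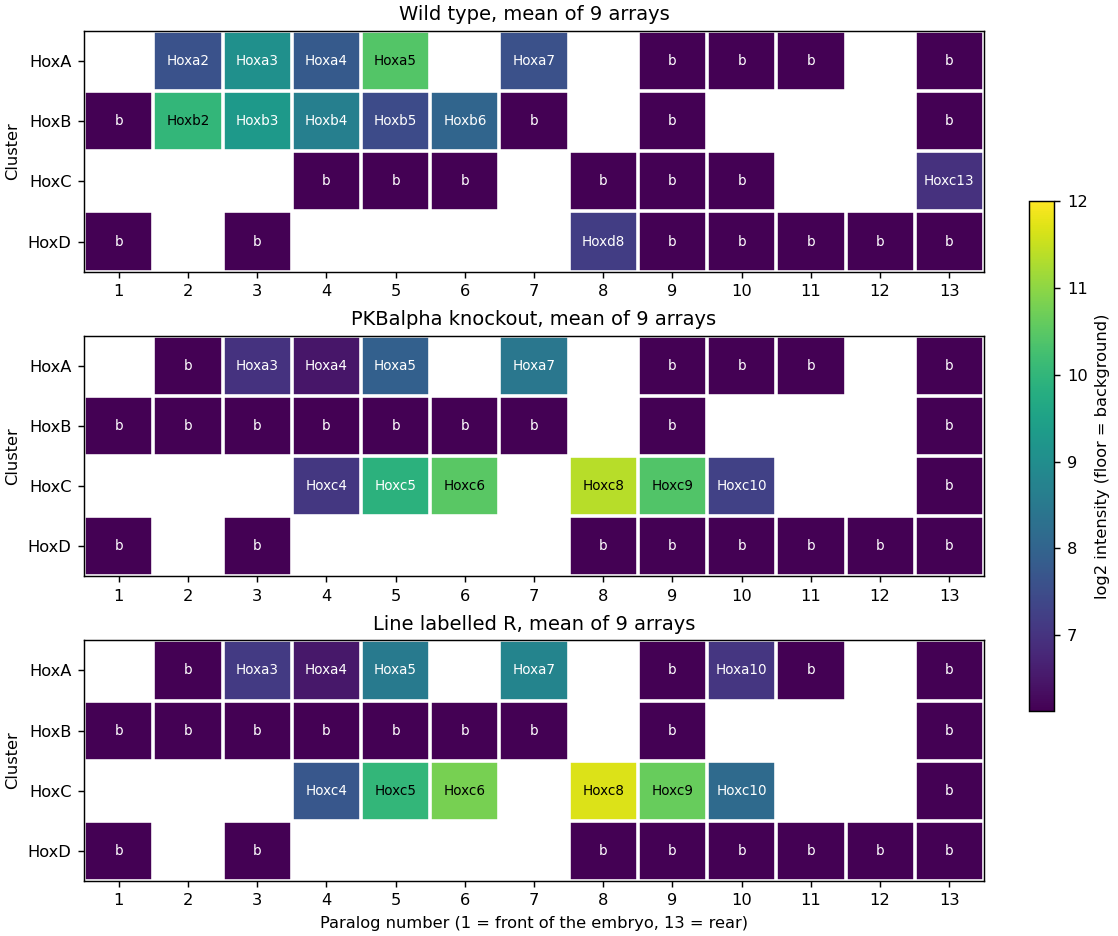
Mean log2 intensity of the 33 HOX genes by cluster (vertical) and paralog number (horizontal) in the 3 lines, 9 arrays each; "b" marks a mean below the background of 6.13 and white cells hold no measured gene. The wild-type map has 5 HoxB genes above background, and the other maps have 6 HoxC genes.

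Between the knockout and the wild type, limma called 7 HOX genes higher and 12 lower (19 of 33, 57.6%), against 33% of all 18193 genes (15.5% higher and 17.5% lower). A difference over 8-fold on the fitted scale was found for 11 of them, against 2.75% of all genes. The 9 arrays of the knockout did not overlap the 9 of the wild type for 17 genes (51.5%), against 10.5% of all genes. Between line R and the wild type, 9 were higher and 13 lower (22 of 33, 66.7%), against 34.1% of all genes (18.1% higher and 16% lower), and 12 were over 8-fold, against 2.63%. Arrays did not overlap for 19 genes (57.6%), against 10.2%. The knockout and line R are both compared with the same wild-type arrays. The HoxB and HoxC medians lay on opposite sides of 0: the median log2 difference of the knockout from the wild type was -4.14 over the 9 HoxB genes and 5.55 over the 7 HoxC genes, beside -0.02 over all genes.

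HoxB genes were the part of the pattern found in wild-type cells. Hoxb2, which acts in hindbrain and cranial neural crest patterning, read 629 to 1344 with a median of 1097 on the 9 wild-type arrays, 1.48 to 33.5 (median 8.45) in the knockout and 2.24 to 42.1 (median 6.84) in line R. All wild-type arrays were above all others. Its level was lower in both other lines, by at least 14.9-fold (log2 difference -6.94 ± 0.44 (SE), adjusted p = 1.2e-10, and -6.98 ± 0.44, adjusted p = 1.0e-10, limma with Benjamini-Hochberg adjustment as for all adjusted p below). At-least folds set the brighter line against the background, since the dimmer line has no level above it.

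Hoxb3 read 469 to 784 (median 622) in wild-type cells, 4.62 to 42.4 (median 26.8) in the knockout and 13.1 to 46.3 (median 26.5) in line R, at least 8.85-fold lower in both (adjusted p = 3.6e-10 and 4.7e-10). Its second probe set showed the same order, with geometric means of 329, 13 and 13.6. Hoxb4, which takes part in the expansion of blood stem cells, read 325 to 544 (median 417) in wild-type cells, 5.46 to 48.5 (median 12.2) in the knockout and 1.82 to 35.4 (median 17.9) in line R, at least 5.84-fold lower in both (adjusted p = 1.4e-07 and 4.8e-08). The RefSeq models of Hoxb3 and Hoxb4 overlap, so signal from their shared stretch cannot be assigned to 1 gene by position alone.

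Hoxb5, which acts in neural crest and gut innervation, read 98.5 to 339 (median 171) in wild-type cells, 0.865 to 17.1 in the knockout and 0.962 to 4.22 in line R, at least 2.53-fold lower in both (adjusted p = 3.2e-10 and 2.6e-10). Hoxb6 read 150 to 440 (median 253) in wild-type cells, 1.16 to 26.5 in the knockout and 11.2 to 54.3 in line R, at least 3.76-fold lower in both (adjusted p = 1.0e-07 and 1.2e-05). For both genes all wild-type arrays were above all others. Of the other measured HoxB genes, Hoxb1, Hoxb7 and Hoxb13 had means below background in all 9 groups. Hoxb7 lies beside Hoxb6 and rests on 1 probe set, with geometric means of 8.83, 12.1 and 8.7 in wild type, knockout and line R. Hoxb9 was above background in untreated wild-type cells only (84.1) and its call as lower in the knockout (-0.79 ± 0.26, adjusted p = 0.023), with line means below background on both sides, was lost at equal array medians (adjusted p = 0.078). Hoxb9 was also called lower in line R, again with both line means below background (56.8 in wild-type cells and 32 in line R).

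HoxC genes were the part found in the knockout and in line R. Hoxc8, which patterns the thoracic region, read 1.39 to 36.7 (median 16.4) on wild-type arrays, 2079 to 3618 (median 2597) in the knockout and 2490 to 4580 (median 3234) in line R. It was at least 37.9-fold higher in the knockout and at least 47.5-fold higher in line R (log2 differences 8.10 ± 0.46 and 8.43 ± 0.46, adjusted p = 2.4e-11 and 1.3e-11), and ranked 11 and 15 of 18193 genes by the size of the fitted difference. Hoxc6, which acts at the level of the upper limb, read 12.3 to 58 (median 36.1), 1032 to 1808 (median 1514) and 1289 to 2523 (median 1778) in the same order of lines, at least 20.7-fold and 25.3-fold higher (adjusted p = 7.9e-15 and 3.5e-15). Both genes were below background on every wild-type array and far above it on every other.

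Hoxc9, which marks the thoracic level and restrains limb motor neuron fates, read 5.71 to 65.8 (median 12.6) in wild-type cells, 1014 to 1940 (median 1266) in the knockout and 1331 to 2301 (median 1505) in line R, at least 19.5-fold and 22.7-fold higher (adjusted p = 1.4e-12 and 7.7e-13). Hoxc5 read 1.56 to 35.6 (median 12.6), 830 to 1096 (median 942) and 866 to 1197 (median 1032), at least 13.7-fold and 14.8-fold higher (adjusted p = 7.3e-11 and 5.3e-11), and its 3 probe sets all read lowest in the wild type. Hoxc10, a gene of the lumbar level and hindlimb, read 4.74 to 34.2 (median 18.8), 102 to 221 (median 150) and 161 to 469 (median 325), at least 2.19-fold and 4.08-fold higher (adjusted p = 5.0e-09 and 1.2e-10). None of these 5 genes had an array of the wild type above the lowest array of another line.

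Hoxc4 read 5.31 to 45 (median 24.5) in wild-type cells, 75 to 527 (median 118) in the knockout and 82.7 to 697 (median 188) in line R, at least 1.95-fold and 3.04-fold higher (adjusted p = 1.9e-05 and 1.1e-06). Of the 5 arrays that stood apart, the knockout array read 527 against 75 to 187 on the other 8, and the line R arrays read 555 and 697 against 82.7 to 287 on the other 7. Without the 5 arrays the log2 differences were 2.07 and 2.54 in place of 2.63 and 3.27, and both calls held. On the 4 h and 24 h arrays alone the Hoxc4 call in the knockout was lost (adjusted p = 0.07 and 0.09). Hoxc13, at the far end of the cluster and known for hair and nail formation, ran the other way: 95.8 to 172 (median 126) in wild-type cells, 4.93 to 49.8 in the knockout and 5.14 to 66.1 in line R, at least 1.79-fold lower in both (adjusted p = 1.7e-05 and 1.3e-05). At single times its call was lost for the knockout at 4 h (adjusted p = 0.052) and for untreated line R (adjusted p = 0.1). It rests on 1 probe set, and every wild-type array was above background while those of the others were all below it.

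**Figure D2:**
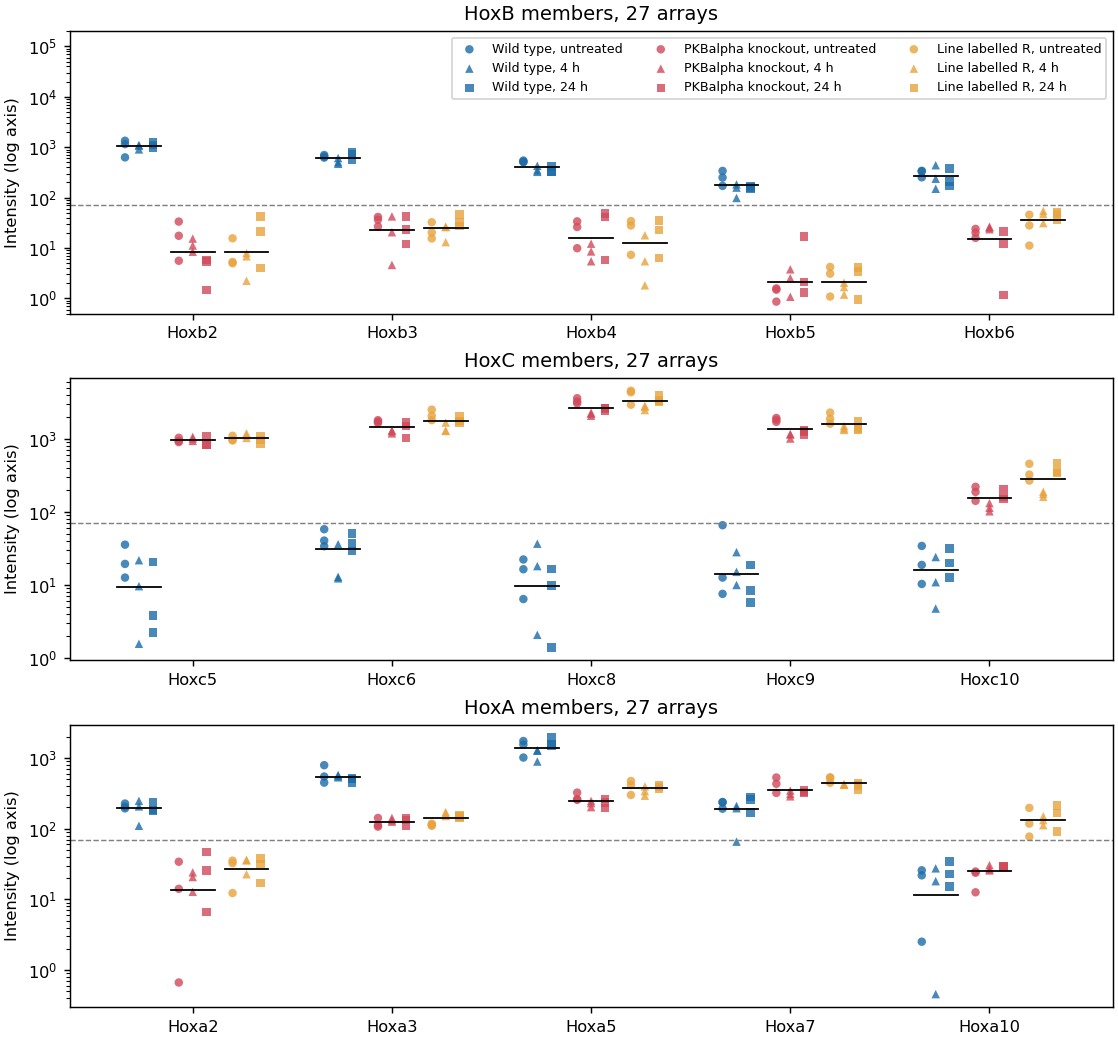
Intensity (log axis) of 5 HoxB, 5 HoxC and 5 HoxA genes on each of 27 arrays; colour gives the line, shape the time, black bars the geometric mean of the line's 9 arrays and the dashed line the background of 69.9. The HoxB points of the wild type and the HoxC points of the knockout and line R lie above the dashed line and the remaining HoxB and HoxC points below it.

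HoxA genes were found in all 3 lines, with the lower paralog numbers higher in wild-type cells. Hoxa5, which acts in lung and cervical spine development, read 892 to 1957 (median 1511) in wild-type cells, 195 to 324 (median 247) in the knockout and 293 to 473 (median 387) in line R, 5.69-fold and 3.71-fold lower (adjusted p = 2.1e-12 and 1.3e-10). Hoxa3, needed for the thymus and parathyroid, read 449 to 792 (median 533), 107 to 142 (median 132) and 110 to 172 (median 149), 4.27-fold and 3.86-fold lower (adjusted p = 5.0e-13 and 1.3e-12). A second Hoxa3 probe set above background showed a smaller difference, with geometric means of 211, 104 and 116. The remaining Hoxa3 probe sets were below background in all lines, at 42.8, 19.3 and 39.9 and at 24, 11.2 and 10.2. The second Hoxa5 probe set had geometric means of 117, 33.9 and 50.8, above background only in wild-type cells. By the brightest probe sets of these genes, wild-type arrays did not overlap those of either other line. The RefSeq model of Hoxa3 spans Hoxa4 and Hoxa5.

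Hoxa4 read 149 to 289 (median 225), 60.8 to 131 (median 92.9) and 59.5 to 123 (median 91.2), 2.48-fold and 2.45-fold lower (adjusted p = 7.9e-07 and 9.3e-07). Its second probe set was below background in all lines, with geometric means of 27.3, 18.1 and 21.6. Hoxa2, the gene of the second pharyngeal arch, read 110 to 248 (median 206) in wild-type cells, 0.667 to 46.9 in the knockout and 12.3 to 38.1 in line R, at least 2.78-fold lower in both (adjusted p = 1.0e-05 and 3.1e-04), with the line R call lost on the 4 h arrays alone (adjusted p = 0.078). Hoxa7 ran the other way, at 65.6 to 280 (median 210), 287 to 530 (median 328) and 353 to 534 (median 426), 1.84-fold and 2.28-fold higher than wild-type cells (adjusted p = 4.9e-04 and 1.6e-05). On the 24 h arrays alone the Hoxa7 calls were lost (adjusted p = 0.27 and 0.074).

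Of the measured HoxD genes only Hoxd8 had a mean above background, and only in wild-type cells. Hoxd8 read 95.6 to 263 (median 134) in wild-type cells, 32.8 to 101 (median 47.2) in the knockout and 2.15 to 57.4 (median 21.4) in line R, at least 2.11-fold lower in both (adjusted p = 0.012 and 9.1e-06), with overlapping arrays only against the knockout. On the arrays of each time alone the Hoxd8 call against the knockout was lost (adjusted p = 0.14, 0.13 and 0.47 for untreated, 4 h and 24 h). Hoxd1, Hoxd3, Hoxd9, Hoxd10, Hoxd11, Hoxd12 and Hoxd13 had means below background in all 9 groups by their brightest probe set, as did Hoxa11 and Hoxa13. Hoxa9 lay at the limit: its group means were below background by the brightest probe set, with 1 wild-type array, 5 knockout arrays and 5 line R arrays above it, and its second probe set read 71.8 in line R at 24 h. Calls for Hoxd3 (lower) and Hoxd10 (higher) in line R against the wild type, like that for Hoxb9, compared line means below background on both sides.

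**Figure D3:**
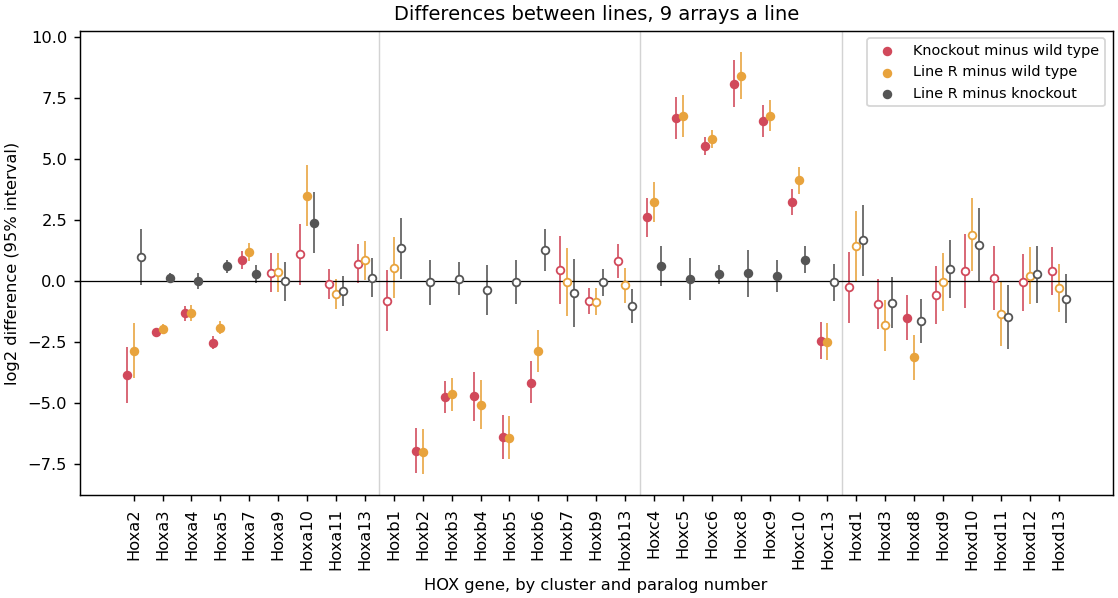
Fitted log2 difference between lines for the 33 genes, in order of cluster and paralog number, with 95% intervals; open points mark comparisons in which both lines were below background. HoxB points of the comparisons with the wild type lie below 0 for paralogs 2 to 6, and HoxC points above 0 for paralogs 4 to 10.

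Line R and the knockout carried the same HOX map apart from Hoxa10. Hoxa10, a gene of the lumbar level and uterus, read 77.5 to 214 (median 132) in line R, 12.6 to 30.5 (median 26.8) in the knockout and 0.457 to 34.2 (median 21.9) in wild-type cells. All 9 line R arrays were above background and above all others, at least 1.9-fold higher than in the knockout (log2 difference 2.41 ± 0.60, adjusted p = 0.0074). At each time alone the call was lost (adjusted p = 0.2, 0.33 and 0.24 for untreated, 4 h and 24 h), with log2 differences of 2.64, 2.24 and 2.34. Its second probe set was below background in all lines, at 8.03, 10.5 and 32 for the wild type, the knockout and line R. Between line R and the knockout limma called 6 of 33 genes (18.2%), near the 17.1% of all genes, and arrays of 1 gene did not overlap (3.03%, against 3.43% of all genes).

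Hoxa5 was 0.62 ± 0.12 higher on the log2 scale in line R than in the knockout (adjusted p = 0.0011), a call that was lost with the mean of its 2 probe sets (adjusted p = 0.082). Hoxc10 was 0.90 ± 0.26 higher (adjusted p = 0.023), and without the 5 arrays that stood apart this missed the threshold (0.83, adjusted p = 0.092). The other calls, Hoxb6 higher and Hoxb13 and Hoxd8 lower, lay below background in both lines. For the remaining HoxC genes above background the 95% intervals of the log2 difference were -0.17 to 1.46 for Hoxc4, -0.75 to 0.96 for Hoxc5, -0.09 to 0.67 for Hoxc6, -0.64 to 1.29 for Hoxc8 and -0.43 to 0.87 for Hoxc9.

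On every array, irradiated or not, Hoxb2 to Hoxb6 were above background in the wild type and below it in the other lines, and Hoxc4, Hoxc5, Hoxc6, Hoxc8, Hoxc9 and Hoxc10 were above it in the knockout and line R and below it in the wild type. At 4 h and 24 h in each line no HOX gene that was above background in that line passed the test. The 1 call among 6 comparisons was Hoxc6 in wild-type cells at 4 h (-1.27 ± 0.31, adjusted p = 0.032; 1 of 33, 3.03%, against 3.25% of all genes). Its arrays read 33.9, 40.5 and 58 untreated and 12.3, 36.1 and 12.9 at 4 h, all below background and overlapping, and the call was lost without the 5 arrays that stood apart (adjusted p = 0.31). In the knockout, 0.368% of all genes were called at 4 h and 0% at 24 h (0 genes by limma, 1064 at an unadjusted p under 0.05), and in line R 0.978% and 0% (0 genes, 830 at an unadjusted p under 0.05). In wild-type cells at 24 h 0.0495% were called.

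Among the genes above background, arrays at 4 h did not overlap those of untreated cells for 6 of 10 in the knockout and 6 of 11 in line R. In wild-type cells it was 3 of 12 (Hoxb3, Hoxb4 and Hoxc13). None passed that test, and the share over all genes above background was not computed. Hoxc6, Hoxc8, Hoxc9 and Hoxc10 read lower in the knockout and in line R. So did Hoxa5 in the knockout (-0.31) and Hoxa7 in line R (-0.24). Hoxa4 read higher in the knockout (0.43) and Hoxa3 in line R (0.51). Hoxc9 read 1715, 1940 and 1834 in untreated knockout cells and 1163, 1156 and 1014 at 4 h. Hoxc8 read 3260, 3076 and 3618 untreated and 2285, 2079 and 2217 at 4 h in the same line. All 4 h arrays were below all untreated arrays for both genes, with log2 differences of -0.72 ± 0.54 (adjusted p = 0.61) and -0.60 ± 0.80 (adjusted p = 0.81). In line R, Hoxc10 read 269, 457 and 325 untreated and 161, 177 and 189 at 4 h, again without overlap (-0.96 ± 0.46, adjusted p = 0.34). In the knockout at 4 h, arrays did not overlap for 8 of 33 genes (24.2%), against 24.4% of all genes, and in line R for 9 (27.3%), against 20.7%. In wild-type cells at 4 h they did not overlap for 5 (15.2%), against 21.2%. At 24 h the counts were 8 in the wild type (24.2%, against 15.8%), 6 in the knockout (18.2%, against 12.1%) and 4 in line R (12.1%, against 9.05%).

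These standard errors pool all 9 groups, including wild-type arrays on which the HoxC genes lie below background and scatter. The call depended on how those values were treated. With every value below background set to it, a treatment chosen after seeing the data, Hoxc8 and Hoxc9 were lower in the knockout at 4 h (adjusted p = 0.014 and 0.0028), and Hoxc6, Hoxc8, Hoxc9 and Hoxc10 in line R (adjusted p = 0.036, 0.02, 0.031 and 0.0086), where that fit called 1.4% and 2.36% of all genes. In wild-type cells at 4 h that fit called Hoxb3, Hoxb4, Hoxb5 and Hoxb9 lower (adjusted p = 0.042, 5.5e-04, 0.015 and 0.037) and Hoxc13 higher (adjusted p = 4.5e-04), with 6.04% of all genes called, and at 24 h Hoxb4 lower (adjusted p = 0.0018), with 0.363%. Its variances are affected by 5824 of 18193 genes (32%) that then have no spread within any group, 11 of them HOX genes. Fitted on the 9 arrays of the line alone, also chosen after seeing the data, the standard errors of Hoxc9 and Hoxc8 in the knockout at 4 h were 0.12 and 0.12 and the adjusted p were 0.17 and 0.2.

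**Figure D4:**
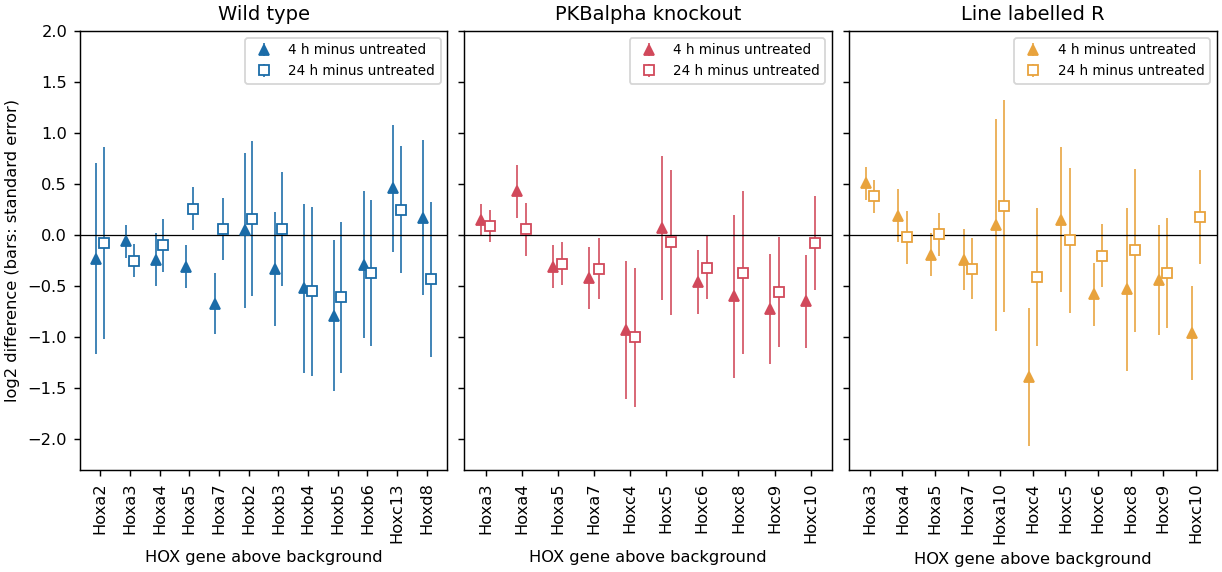
Fitted log2 difference from untreated cells at 4 h (filled triangles) and 24 h (open squares) for the HOX genes above background in each line, 3 arrays per group, with standard errors from the fit on all arrays. At 4 h 9 of 12 genes lie below 0 in wild-type cells, 7 of 10 in the knockout and 7 of 11 in line R, and none passed the test.

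By the interaction contrasts, no HOX gene of the knockout or line R differed from the wild type in its response to irradiation. The smallest adjusted p in these contrasts was 0.22 (Hoxb13, knockout against wild type at 24 h). The responses of line R and the knockout were not compared with each other. For Hoxb2 to Hoxb6 and Hoxc4 to Hoxc10, a line of each contrast lay below background, so the contrasts cannot show that responses were alike. Over all genes, 0.011% and 0.0055% were called for the knockout against the wild type at 4 h and 24 h, and 0.0165% and 0.0055% for line R. With values set to the background, Hoxb4, Hoxc9 and Hoxc13 differed between the knockout and the wild type at 4 h (adjusted p = 0.038, 0.031 and 0.033) and Hoxb4 and Hoxc13 between line R and the wild type (adjusted p = 0.036 and 0.031), with 0.517% and 0.588% of all genes called. In each of these at least 1 of the 2 lines was below background and held at a constant.

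Genes that work with or upstream of HOX proteins were counted the same way, beside 33% of all genes called in the knockout and 34.1% in line R, both against the wild type. Of 8 measured HOX cofactors, which help HOX proteins to choose their DNA sites, 1 was higher and 4 were lower in the knockout, and 1 was higher and 3 were lower in line R, each against the wild type (62.5% and 50%). Meis2 read 2127 in wild-type cells, 604 in the knockout and 821 in line R (adjusted p = 9.2e-14 and 5.7e-12), and Meis1 765, 282 and 204 (adjusted p = 1.6e-09 and 2.0e-11). Pknox2 read 373, 76.4 and 127, while Meis3 read 113, 195 and 210.

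Of 15 upstream regulators, 1 was higher and 5 were lower in the knockout, and 2 were higher and 4 lower in line R (40% in each, against 33% and 34.1% of all genes). Both Aldh1a1 and Aldh1a2, which make retinoic acid, an inducer of HOX genes with low paralog numbers, were among them, while the related Aldh1a3 was below background in all lines (24.9, 21.4 and 18.2). Aldh1a2 read 3200 in wild-type cells, 14.6 in the knockout and 11.7 in line R, at least 45.8-fold lower in both (adjusted p = 4.6e-12 and 2.4e-12). Aldh1a1 read 2719, 3.52 and 5.13, at least 38.9-fold lower in both, and the retinoic acid receptor gene Rarb read 251, 11.8 and 19.4, at least 3.59-fold lower in both. Rxra read 276, 635 and 565.

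Of 32 measured positional factors, which act in body and limb patterning, 10 were higher and 8 lower in the knockout, and 9 were higher and 8 lower in line R (56.2% and 53.1%, against 33% and 34.1% of all genes). Foxf1, a gene of visceral mesoderm, read 626 in wild-type cells, 17.2 in the knockout and 24.3 in line R, at least 8.97-fold lower in both. En1, known from ventral limb and trunk dermis, read 7.51, 385 and 283, at least 5.52-fold and 4.05-fold higher. Shox2, a limb gene, read 479, 1785 and 2933, and Tbx15, a gene of trunk and limb mesenchyme, 234, 666 and 856. Some markers of other cell types differed as well: Krt14 of epithelia read 758, 6.01 and 5.93, Kdr of endothelium 300, 35.1 and 42.5, and Tubb3 of neurons 61.5, 563 and 392. Of 6 epithelial markers 4 were called in the knockout and 3 in line R (66.7% and 50%). Only 1 of 4 endothelial and 1 of 4 neural markers were called in each (25%). In the blood, skeletal muscle and pluripotent lists, 1 of 4 each was called in the knockout, and 2, 0 and 0 in line R. Above background were 2 of 6 epithelial markers in wild-type cells and 0 in the other lines, 1 of 4 endothelial markers in wild-type cells and 0 in the others, and 1 of 4 neural markers in the knockout and line R and 0 in wild-type cells. For blood markers it was 2 of 4 in wild-type cells and 1 in each other line. Their part in the HOX result was not tested.

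Polycomb and Trithorax genes showed small differences. Of 28 Polycomb genes 3 were higher and 7 lower in the knockout against wild-type cells, with log2 differences from -1.21 to 0.37, and 7 were higher and 7 lower in line R, from -0.68 to 0.69 (35.7% and 50%, against 33% and 34.1% of all genes). Ezh2, the methyltransferase of Polycomb, read 2114, 2447 and 2864, with adjusted p = 0.14 in the knockout and 0.0022 in line R. The smallest adjusted p of the Polycomb list were 8.1e-07 and 2.0e-05. Of 14 Trithorax genes 3 were higher and 0 lower in the knockout, and 2 were higher and 2 lower in line R (21.4% and 28.6%, against the same shares of all genes). Of the measured genes next to the clusters none differed over 8-fold in either line from the wild type. Over all genes 2.75% and 2.63% did, so with so few neighbours 0 lies near the general share. Of 7 HoxB neighbours 1 was higher in the knockout and 2 in line R, and 0 were lower. Of 9 HoxC neighbours 0 were higher and 4 lower in the knockout, and 1 was higher and 1 lower in line R. Of 5 HoxA neighbours 1 was higher and 2 lower in the knockout, and 1 was higher and 1 lower in line R. Of 7 HoxD neighbours 2 were higher and 2 lower in each. In the knockout and line R these were 14.3% and 28.6% of HoxB neighbours and 44.4% and 22.2% of HoxC neighbours. They were 60% and 40% of HoxA neighbours and 57.1% of HoxD neighbours in each, against 33% and 34.1% of all genes.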

How the data were processed

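The authors deposited linear intensity values for 45101 probe sets on 27 arrays. RMA and GCRMA are named, without versions, in the submitters' processing notes, but the linear values and the 2% trimmed mean of 500.003 on each array are not the form either gives, so the summary method is not known, and neither is its effect on low values. The log2 of each value was used, with no offset added. Each gene was read from its brightest probe set with a single symbol (18193 genes). Groups came from sample titles. Differences were fitted with limma 3.58.1 in R 4.3.3 on 9 group means (18 residual degrees of freedom), two-sided, called at a Benjamini-Hochberg adjusted p below 0.05. Line contrasts average the 3 times (9 arrays a line). On simulated data for the knockout against the wild type, the fit was tested before use. Every HOX gene is named. From other lists, up to 4 genes with the smallest p were named, except that Ezh2 and Aldh1a3 were named outside that rule. The genes, lists and tests were chosen with earlier results of these data known. Replicate numbers did not pair arrays (108 pairs, median correlation 0.03, range -0.72 to 0.78), so a block was only an alternative.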

Additional observations from a re-analysis of the deposited data

How the results depend on the processing

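Counts of HOX genes called are given in place of the reported value. With genes above background only, the line comparisons gave 11 (knockout against wild type), 11 (line R against wild type) and 2 (line R against knockout). That fit called 52.7%, 54.7% and 32.4% of its 10225 genes. It kept genes whose mean over all arrays lay above background, so fewer HOX genes were tested, and all that were tested were called against the wild type. Its HoxC genes and Hoxb3 passed that filter only through the lines where they were high, so their calls in that fit are no further support. Line R against the knockout gave 2, 0 and 3 of 33 in untreated, 4 h and 24 h arrays alone, against 3.79%, 3.38% and 5.27% of all genes. Hoxb13 there turned to 0.11 in the 4 h arrays. The wild-type 4 h count was 0 with equal array medians, with compared arrays only, with probe sets of a gene averaged, without the 5 arrays and on the line's arrays alone. With log2(intensity + 50) the knockout and line R at 4 h each gave 1 (Hoxb13 and Hoxc10), against 1.1% and 1.81% of all genes. Without the 5 arrays the knockout at 4 h gave 1 (Hoxc13, below background), against 0.912% of all genes. With intensities floored at the background, wild-type cells gave 5 at 4 h and 1 at 24 h, the knockout 2 and line R 4 at 4 h, and the response differences at 4 h 3 (knockout) and 2 (line R). Under that floor the log2 differences of Hoxd10 (line R against wild type) and Hoxb6 (line R against knockout) were -0.00 and that of Hoxb13 was 0.00, because both sides sit at the floor. The floor and the fit on the line's arrays alone were added after the data had been seen. Apart from the floor's construction and the smaller gene set, the cause of these changes was not tested. Leaving out 1 array gave 0 to 1 calls for wild-type and for knockout cells at 4 h, 18 to 20 for the knockout and 21 to 23 for line R against the wild type, and 4 to 6 between them. With the replicate block, Hoxc6 in wild-type cells at 4 h kept its call (adjusted p = 0.026). In every alternative run, 14 of 19 calls of the knockout against the wild type held, 15 of 22 of line R against the wild type and 0 of 6 between line R and the knockout. With the background at 100, 12, 9 and 10 genes were above it in wild type, knockout and line R. Values below background have no order.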

Other observations

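The antisense transcript Hoxb5os, which is no HOX gene by the rule used here, read 1552 in wild-type cells (827 to 2283), 14.8 in the knockout (2.86 to 68.5) and 29 in line R (2.77 to 89.6), as geometric means of 9 arrays. The probe sets for Hoxa11os and Hoxd3os1 had means below background in all 3 lines. A probe set shared by Hoxb7 and a neighbour read 37.6, 5.69 and 10.1, below background in each line.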
